A study of Homo sapiens with 18 samples.

Results

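The Schlafen gene cluster on human chromosome 17q12 was examined through the repeat copies that lie across it. The members were all repeat copies of any name whose start and end fall within hg19 chr17:33550000-33920000, a window of 370 kb that holds SLFN5, SLFN11, SLFN12, SLFN13 and SLFN14. The 5-FU table held 424 such copies among 2404193 and the Nutlin table held 372 among 1996647, of which 363 were in both. The window was drawn around a HAL1b copy at chr17:33594769-33595457, selected on its counts with Nutlin against DMSO, and an L1MEa copy at chr17:33678938-33679292, selected on its counts after 24 h of 5-FU against DMSO. The values of those 2 comparisons are therefore given as a description: no p is printed for them, and nothing is read from counts of copies or bins past the threshold. Comparisons of 5-FU at 6 h and 12 h, and of DMSO with untreated cells, were tested.

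The study sequenced 18 total RNA libraries of IMR90, a wild-type human lung fibroblast line, with 2 libraries in each of 9 groups. Untreated cells had their medium changed 12 h before extraction. Nutlin was given at 5 µM for 6 h beside its own DMSO group, and 5-FU at 375 µM for 6, 12 or 24 h, each beside a DMSO group of the same duration, with the DMSO volume matched to that of the drug. Nutlin blocks MDM2, the ubiquitin ligase that keeps p53 low, and 5-FU (5-fluorouracil) blocks thymidylate synthase and is also built into RNA. Nothing in the labels states that the 2 libraries of a group came from separate cultures, so p-values measure only the spread between these libraries, which may be technical. The tables count repeat copies and no genes, so the fibroblast label could not be checked against markers. In bulk RNA, fewer cells and less RNA per cell cannot be told apart.

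Schlafen genes are a mammalian family that is induced by interferon and acts on nucleic acids. SLFN11 blocks replication at stressed forks and sensitizes cells to DNA-damaging drugs. SLFN12, SLFN13 and SLFN14 have been described as RNA-cleaving proteins that act on transfer or ribosomal RNA, and SLFN5 acts in the nucleus as a transcriptional co-repressor. Repeat copies inside genes are transcribed with the gene, mostly as part of introns, so total RNA holds reads from copies that are no longer active elements. In the RefSeq gene table the Schlafen genes follow each other in the order SLFN5, SLFN11, SLFN12, SLFN13, SLFN12L and SLFN14. The reference used here is of another build than the files, so none of the copies was assigned to a gene, an exon or an intron.

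Promoters of Schlafen genes are shown as background on the genes. No copy or stretch was assigned to a gene, and whether a promoter bears on any count was not tested. The promoter table, of RefSeq on GRCh38.p14, held 3 of the 6 Schlafen genes between SLFN5 and SLFN14: SLFN11 at chr17:35373572-35373871, SLFN12 at chr17:35433125-35433424 and SLFN12L at chr17:35537629-35537928, all 3 on the minus strand. Each run is 300 bases, 5′ to 3′ on the gene's strand. Capitals mark matches to 3 motifs searched on both strands: GAAANNGAA (part of the interferon-stimulated response element), TTCNNNGAA (the gamma-activated site bound by STAT proteins) and CATG (the core of a p53 half-site).
SLFN11: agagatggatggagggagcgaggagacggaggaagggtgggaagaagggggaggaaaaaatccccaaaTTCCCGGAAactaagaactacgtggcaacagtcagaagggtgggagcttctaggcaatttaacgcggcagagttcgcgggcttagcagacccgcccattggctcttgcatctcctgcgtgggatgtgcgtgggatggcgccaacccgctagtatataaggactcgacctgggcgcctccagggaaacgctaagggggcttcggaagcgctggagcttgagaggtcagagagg
SLFN12: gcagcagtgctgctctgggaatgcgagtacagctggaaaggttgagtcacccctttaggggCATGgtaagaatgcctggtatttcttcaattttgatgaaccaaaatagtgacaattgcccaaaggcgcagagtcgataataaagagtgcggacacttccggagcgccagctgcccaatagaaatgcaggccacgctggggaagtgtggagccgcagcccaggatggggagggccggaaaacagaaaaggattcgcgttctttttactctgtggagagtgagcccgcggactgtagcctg
SLFN12L: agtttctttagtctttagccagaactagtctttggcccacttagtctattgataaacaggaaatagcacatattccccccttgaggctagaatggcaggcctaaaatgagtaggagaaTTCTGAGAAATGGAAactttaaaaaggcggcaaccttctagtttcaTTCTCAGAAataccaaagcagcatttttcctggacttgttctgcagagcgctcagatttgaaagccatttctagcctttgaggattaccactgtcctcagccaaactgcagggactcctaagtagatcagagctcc
SLFN11 held 1 match to TTCNNNGAA, SLFN12 held 1 match to CATG, and SLFN12L held 1 match to GAAANNGAA, which overlaps 1 of its 2 matches to TTCNNNGAA. Among 35116 promoters of the same length, 8.11% held GAAANNGAA, 7.66% held TTCNNNGAA and 54.9% held CATG. A match is a run of letters and no measurement of binding.

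Library totals were 2412334 to 6290320 counts for 5-FU and 9109885 to 11880265 for Nutlin. Structural RNA copies held 30.0% to 45.2% of the counts in the first and 74.4% to 80.6% in the second. The first untreated library is in both tables, at 30.0% and 74.4%, with 3377 and 3406 counts in the window, so the gap is between the tables. The window held 2211 to 4992 counts per library in the 5-FU table, 0.0594% to 0.101% of each library. In the Nutlin table it held 2889 to 10549 counts, 0.0311% to 0.0888%. The 2 untreated columns of the Nutlin table held identical values at every copy and were counted as 1 library. The tables were scaled separately, so levels in CPM, counts relative to the scaled library total, are compared only within a table.

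Most copies of the window had few or no reads. With 5-FU, 156 of the 424 copies had no count, 217 had counts too low to test and 51 were tested. With Nutlin, 164 of the 372 had no count, 171 were too low and 37 were tested. The tested copies held 95.3% and 95.9% of the window's counts. By kind, the 5-FU table tested 26 of 125 copies of L1 and HAL1 (long interspersed elements, HAL1 being an ancient relative that kept only the first L1 reading frame). It tested 9 of 180 Alu copies, the short primate elements derived from 7SL RNA. Of copies counted as retroviral long terminal repeats (LTR and ERV) it tested 13 of 85, and of DNA transposons 3 of 10. The MER63B copy, a DNA transposon that was not tested, was counted among the 85. None of the 13 MIR copies and none of the 11 copies of L2, L3 and L4 had enough counts.

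The counts lay in 3 short stretches that together made up most of the window's signal in every library. The first stretch is the 10 kb bin chr17:33590000-33599999, with a tail in the next bin. In libraries of the 5-FU table it held 53.3% to 70.5% of the window's counts, and in those of the Nutlin table it held 52.5% to 89.4%. The second, chr17:33670000-33679999, held 1.71% to 17.3% and 3.47% to 17.2%. The third, chr17:33730000-33739999, held 14.5% to 30.5% and 3.04% to 19.3%. Of the 37 bins, 17 had enough counts to test with 5-FU and 14 with Nutlin.

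**Figure D1:**
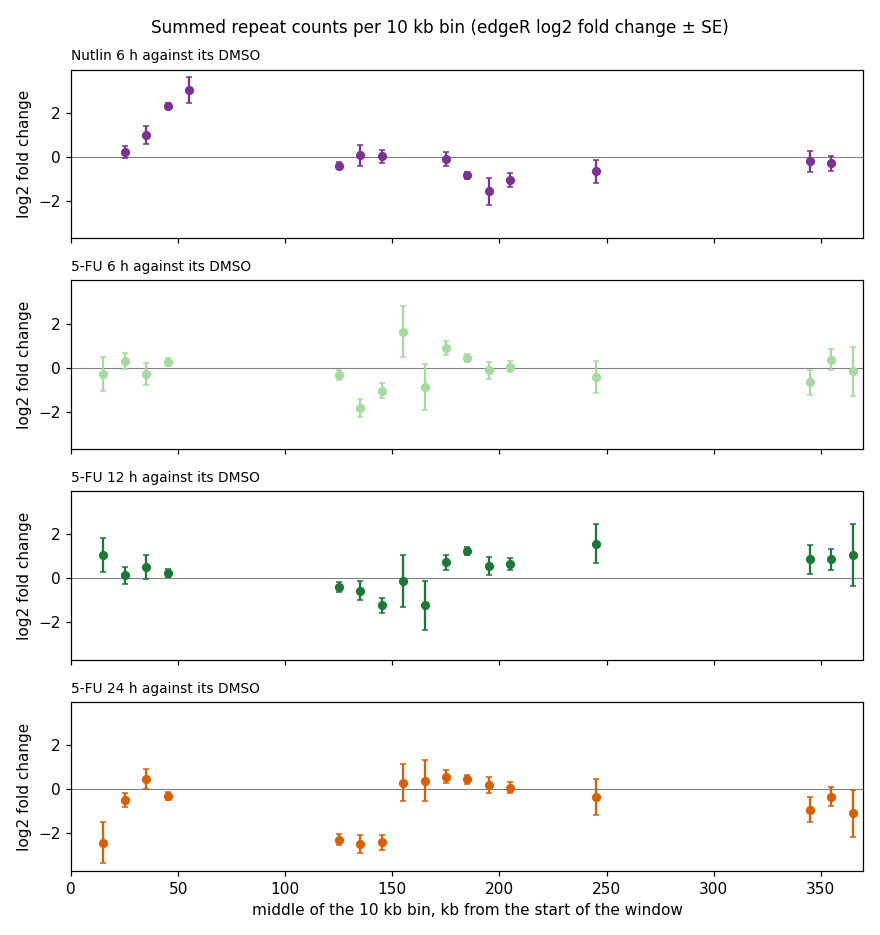
Log2 fold change with its standard error (SE) of the summed repeat counts in each tested 10 kb bin, by distance from the start of the window, for the 4 drug comparisons, each against its own DMSO. The first stretch stands at 2.31 with Nutlin, 3 neighbouring bins stand between -2.29 and -2.50 after 24 h of 5-FU, and the third stretch stands at 1.25 after 12 h.

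The first stretch holds HAL1b fragments with other repeats between them. By the numbers in the row names, taken as positions in the repeat's consensus, 5 HAL1b fragments run in order: 1 to 89, 90 to 857, 858 to 916, 1486 to 1841 and 1962 to 2368. An AluJr4, an AluSx, an L1MEc and an MLT1K copy lie between them. The positions run on without a gap across the AluJr4 and the AluSx, and skip bases across the L1MEc and the MLT1K. After them come MER20 (a DNA transposon of the hAT kind), L1MEi, 3 L1ME4b copies with an AluJb among them, and L1ME3Cz. Per length, levels within the stretch were uneven. Over the 14 libraries of the 5-FU table the 87 bp MLT1K copy had a mean of 377.0 CPM per kb, the highest of the 51 tested copies, and the central HAL1b copy had 171.5. The 4 highest copies were 37 to 94 bp long, and where a read reaching past a short copy is counted in full, its level per length comes out high. The HAL1b fragment at 33596936 had 26.5 CPM per kb. The L1PA3 copy at 33720969, a primate L1 of 5996 bp in another part of the window, had 0.611.

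With Nutlin the first stretch was several-fold higher. The central HAL1b copy had 447 and 374 counts with DMSO and 1820 and 1406 with Nutlin. Scaled, that was 48.3 and 39.0 CPM against 160.4 and 169.8 CPM, with the untreated library at 40.4. Both Nutlin libraries lay far above all 3 others, and the log2 fold change was 1.92 (SE 0.116). This copy alone held 29.9% of the HAL1b counts of the Nutlin table, first among 744 copies with a count. With 5-FU it held 16.7%, first among 1358.

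The summed bin went from 174.1 ± 12.8 CPM with DMSO to 862.5 ± 56.9 with Nutlin (SD, n = 2), a log2 fold change of 2.31 (SE 0.147). It ranked 279 from the top of 29206 bins across the genome. The next bin, chr17:33600000-33609999, was thin, with 4 and 3 counts against 27 and 32, and its log2 fold change was 3.03 (SE 0.575). In the Nutlin comparison 16 tested copies of the window were called higher and 2 lower, against 5.36% and 4.21% of all 21328 copies tested. On library size alone they were 16 and 6. Since this comparison chose the window, the counts describe it only. All 16 higher copies lay between 33594335 and 33600763.

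The higher copies fell into 2 runs by position. The 9 copies up to 33597296 had log2 fold changes of 1.69 to 2.20, and the 7 from MER20 at 33597658 on had 2.82 to 3.25. MER20 had 62 and 65 counts with DMSO and 717 and 544 with Nutlin, a log2 fold change of 3.25. The long L1ME4b copy at 33599065 (1280 bp) had 205 and 174 against 1911 and 1353, a log2 fold change of 3.04. Within the later run the DNA transposon MER20, the L1 copies and the AluJb copy at 33598767 (2.92) had values close to each other.

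**Figure D2:**
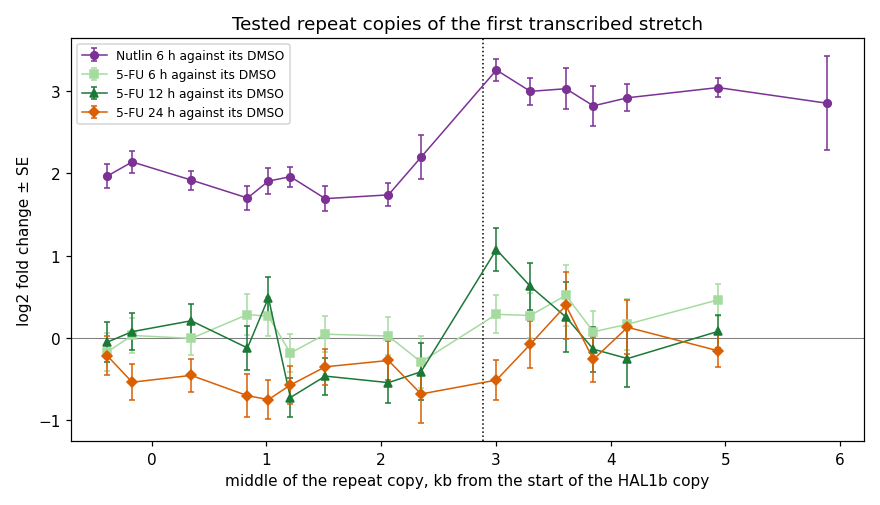
Log2 fold change with its SE of each tested copy of the first stretch, by distance of its middle from the start of the central HAL1b copy, in 4 comparisons. The dotted line marks the start of MER20; with Nutlin, the 9 copies before it stand between 1.69 and 2.20 and the 7 after it between 2.82 and 3.25.

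This shift along the stretch needs no scaling between libraries, since it can be read as the share of the stretch's own counts that come from MER20 on. The place of the division was chosen after the values were seen. The share was 26.0% and 24.5% with DMSO, 28.7% untreated, and 43.2% and 42.3% with Nutlin. In the 5-FU table it was 29.0% and 27.1% untreated. At 6 h it was 32.7% and 30.6% with DMSO against 36.8% and 37.4% with 5-FU. At 12 h it was 29.2% and 30.4% against 35.2% and 34.0%, and at 24 h 26.4% and 27.7% against 30.6% and 32.7%. At each of the 3 times both 5-FU libraries lay above both DMSO libraries. Over 6 h and 12 h the mean difference was 5.12 percentage points. An exact permutation test that exchanged labels within each time gave a two-sided p = 0.0556, the smallest that the 36 arrangements allow. With no overlap between the libraries at either time, no other p could result. Since the division was also set after the values were seen, nothing is read from this p.

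**Figure D3:**
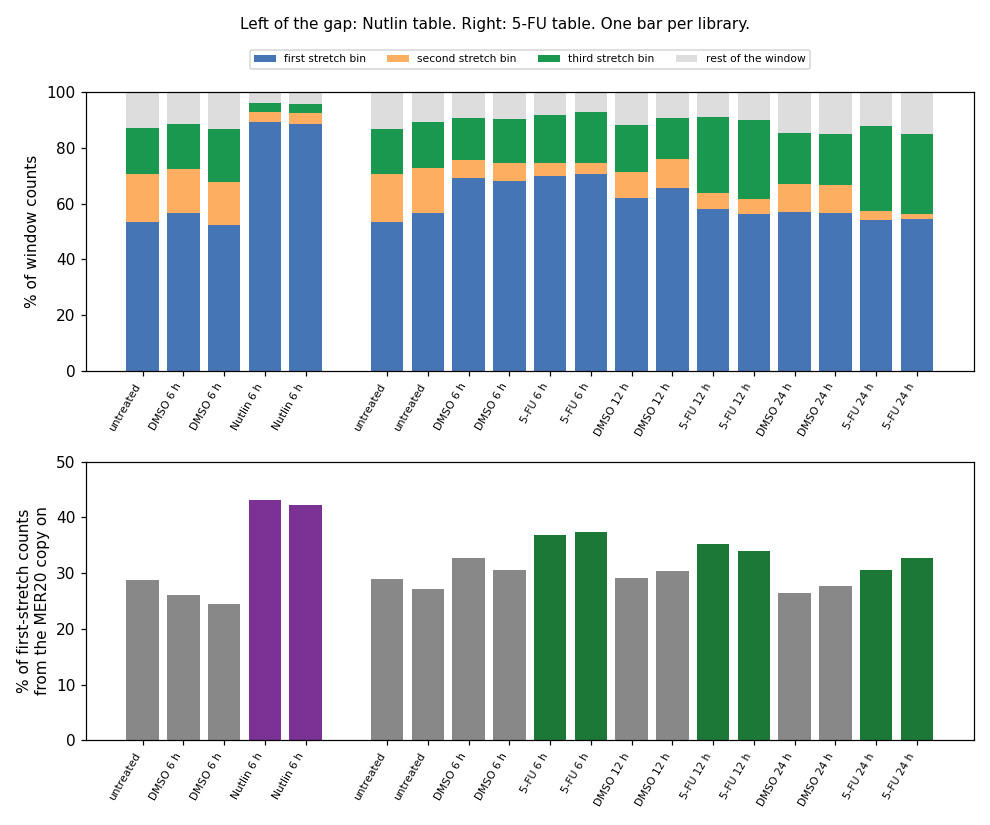
Upper: share of the window's counts that lies in the bins of the 3 stretches, per library. Lower: share of the first stretch's counts that comes from MER20 on, which is 42.3% to 43.2% with Nutlin, 30.6% to 37.4% with 5-FU and 24.5% to 32.7% in the other libraries.

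In level, the first stretch passed the test at neither 6 h nor 12 h of 5-FU. The bin had 2958 and 3063 counts with DMSO and 3067 and 3520 with 5-FU at 6 h, and 1374 and 1616 against 1878 and 1999 at 12 h. Its log2 fold change was 0.25 at 6 h (SE 0.190, edgeR adjusted p = 0.728) and 0.25 at 12 h (SE 0.191, adjusted p = 0.43). At 24 h it was -0.32 (SE 0.191). The central HAL1b copy stood at 127.8 and 141.6 CPM with DMSO and 133.9 and 134.8 with 5-FU at 6 h. At 12 h the values were 109.0 and 121.6 against 130.2 and 136.5. After 24 h they were 113.5 and 108.7 against 91.0 and 71.6. Those were log2 fold changes of -0.00, 0.21 and -0.45. The first 2 did not pass the test (adjusted p = 1.0 and 0.537), and the sign of each changed under an alternative: the first without the filter on low counts (0.12), the second on library size alone (-0.12).

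MER20 was the 1 copy of this stretch that rose with 5-FU. At 12 h it had 33 and 43 counts with DMSO and 91 and 116 with 5-FU, or 12.2 and 16.4 CPM against 26.8 and 33.7. The log2 fold change was 1.07 (SE 0.257, edgeR adjusted p = 0.0106). At 6 h it was 0.29 (adjusted p = 0.825), and the difference between the 12 h and 6 h effects was 0.79 (adjusted p = 0.337). The 12 h DMSO libraries, which at 2412334 and 2540089 counts were the shallowest of the table, were low for this copy, whereas DMSO had 27.9 and 26.4 CPM at 6 h and 20.8 and 18.1 after 24 h. Set against the DMSO libraries of 6 h and 24 h, it was 0.40 (adjusted p = 0.191). Without the first 12 h DMSO library it was 0.81 (adjusted p = 0.17), and without the second 12 h 5-FU library 0.93 (adjusted p = 0.0981).

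The second stretch behaved differently. It holds MLT1A, an LTR of a mammalian retrovirus-like element, the 44 bp L1MC5a and the L1MEa copy, and the 2 bins after it hold L1ME4b, AluJb and L1MA1 copies. The L1MEa copy held 68.5% of the L1MEa counts of the 5-FU table, from 95 copies with a count, and 82.7% with Nutlin, from 62. It had its highest level in untreated cells, lower levels in all DMSO libraries of the 5-FU series, and the lowest after 24 h of 5-FU.

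The L1MEa copy had 271 and 226 counts untreated, which scaled to 67.8 and 67.5 CPM. With 6 h of DMSO it had 24.1 and 23.4 CPM, with 12 h 30.8 and 42.1, and with 24 h 38.9 and 32.7. All 6 DMSO libraries lay below both untreated ones. The mean of the 3 DMSO groups was lower by a log2 fold change of -1.11 (SE 0.208, edgeR adjusted p = 0.00714). Without the first untreated library it was -1.15 (adjusted p = 0.0953), and without the second -1.16 (adjusted p = 0.11). MLT1A fell likewise, from 64.7 ± 1.52 CPM (SD, n = 2) to 34.8 ± 5.95 (SD, n = 6), a log2 fold change of -0.91 (SE 0.187, adjusted p = 0.0132). Without the first untreated library its log2 fold change was -0.94 (adjusted p = 0.139), and without the second -0.99 (adjusted p = 0.132).

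Summed over the bin, the fall against untreated was from 151.4 ± 6.22 CPM to 69.7 ± 11.4, a log2 fold change of -1.13 (SE 0.182, edgeR adjusted p = 0.000372). It passed the test without each library in turn, with adjusted p between 0.00092 and 0.0271. It also passed with the DMSO group of 6 h, 12 h or 24 h alone, at log2 fold changes of -1.39, -1.05 and -0.95. L1MEa and MLT1A passed with the 6 h group alone and not with the others. With the 12 h and the 24 h group alone the L1MEa copy had -0.89 (adjusted p = 0.0956) and -0.92 (adjusted p = 0.159), and MLT1A had -0.68 (adjusted p = 0.163) and -0.84 (adjusted p = 0.147). In this comparison 3 tested copies of the window were lower and none higher, where 1.02% and 0.643% of all 63602 tested copies were. DESeq2 called the same number of copies. In the window 7 copies had an unadjusted p under 0.05 with edgeR, beside 9824 of all 63602. The third copy was the L1PA3 copy, with 42 and 21 counts untreated and 6 to 17 in the DMSO libraries. Its log2 fold change was -1.73 (SE 0.399, adjusted p = 0.0278). It did not pass without the first untreated library (-1.36, adjusted p = 0.328), the second untreated library (-2.10, adjusted p = 0.0898), the first 6 h DMSO library (-1.57, adjusted p = 0.0634) or the first 12 h DMSO library (-1.60, adjusted p = 0.0774), nor with the 12 h or 24 h DMSO group alone (adjusted p = 0.186 and 0.199).

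The DMSO group of the Nutlin series gave other values, a difference that was not tested. There the L1MEa copy had 25.5 CPM untreated and 24.4 and 18.3 with DMSO, and 14.1 and 17.9 with Nutlin. As a ratio within each library, the second stretch's bin held 0.323 of the first's untreated and 0.276 and 0.287 with the Nutlin series' DMSO. With 6 h of DMSO in the 5-FU series the ratio was 0.0957 and 0.094, against 0.325 and 0.284 untreated. Both DMSO groups lasted 6 h, and the labels do not give their volumes. For untreated cells the labels give a medium change 12 h before extraction, and for DMSO cells the time under DMSO only. DMSO, the handling of the medium and any other difference between the untreated libraries and the 5-FU series therefore cannot be told apart.

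After 24 h of 5-FU the second stretch and the bin chr17:33690000-33699999 were at their lowest, in the comparison that chose the L1MEa copy. The bin between them had 1.96 and 2.55 CPM, which overlapped its 2.52 and 2.10 CPM at 6 h of 5-FU. The L1MEa copy had 208 and 190 counts with DMSO and 41 and 26 with 5-FU. That was 38.9 and 32.7 CPM against 9.50 and 4.03, a log2 fold change of -2.45 (SE 0.304). Without the first 24 h 5-FU library it was -3.10 and without the second -1.93. MLT1A had 189 and 214 against 46 and 35 (-2.20, SE 0.266) and L1MC5a 35 and 33 against 5 and 3 (-2.96, SE 0.631). Over the 3 bins from chr17:33670000 to chr17:33699999 the log2 fold changes were -2.29, -2.50 and -2.41. The first of these bins had -2.94 without the first 24 h 5-FU library and -1.80 without the second. They ranked 1275, 1045 and 1139 from the bottom of 64607 bins. As a description, 5 tested copies were past the threshold for lower and none for higher, beside 1.82% and 2.42% of all copies. With DESeq2 they were 8 and 1. Without the second 24 h 5-FU library, L1MC5a and the AluJb copy at 33693809 were no longer among them.

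At 6 h and 12 h of 5-FU, 1 bin and 1 copy of this stretch and the bins after it passed the test. The L1MEa copy had 21.4 and 16.7 CPM at 6 h of 5-FU, below both DMSO libraries, with a log2 fold change of -0.32 (SE 0.280, edgeR adjusted p = 0.843). At 12 h it had 27.3 and 25.8 CPM, again below both, with -0.45 (SE 0.283, adjusted p = 0.326). The bin chr17:33680000-33689999 had 39 and 43 counts with DMSO at 6 h and 11 and 10 with 5-FU, a log2 fold change of -1.83 (SE 0.416, adjusted p = 0.0814). When only the libraries compared were fitted, this 6 h value passed (-1.83, adjusted p = 0.0442). At 12 h it had 15 and 16 counts against 11 and 12, a log2 fold change of -0.55 (adjusted p = 0.458). Its 12 h DMSO libraries were low, with 4.72 and 5.11 CPM, below 8.09 and 8.43 in the 6 h DMSO group. The 24 h DMSO group had 12.97 and 13.11. Against the DMSO libraries of those other times, the 12 h log2 fold change was -1.63 (SE 0.371, adjusted p = 0.00285). On library size alone it was -1.12 (adjusted p = 0.104). The 6 tested copies of the 2 bins after the second stretch had negative log2 fold changes at 6 h, and 4 of them at 12 h. The other 2, L1ME4b at 33683494 and 33684203 with at most 3 counts in each 12 h library, had 0.35 each. The bin chr17:33690000-33699999 fell at 12 h, from 55 and 54 counts to 23 and 28, a log2 fold change of -1.22 (SE 0.335, adjusted p = 0.0159). That bin's adjusted p was 0.0829 without the first 12 h DMSO library, 0.0705 without the second, and 0.0893 without the first 12 h 5-FU library.

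The copy with the most counts in that bin was L1MA1 at 33696601, a 3041 bp piece of an L1 family older than the L1PA families. It had 25 and 32 counts with DMSO at 12 h and 12 and 12 with 5-FU, a log2 fold change of -1.61 (SE 0.405, edgeR adjusted p = 0.0148). The adjusted p was 0.0964 without the second 12 h DMSO library, 0.0886 without the first 12 h 5-FU library and 0.0981 without the second. Set against the DMSO libraries of 6 h and 24 h, it was -1.03 (adjusted p = 0.0584). At 24 h the copy had 57 and 59 counts against 9 and 10. The AluJb copy at 33693809 had 16 and 13 counts with 24 h of DMSO and none in either 5-FU library, which was at least 4.51-fold lower against a floor of 3 counts per library.

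**Figure D4:**
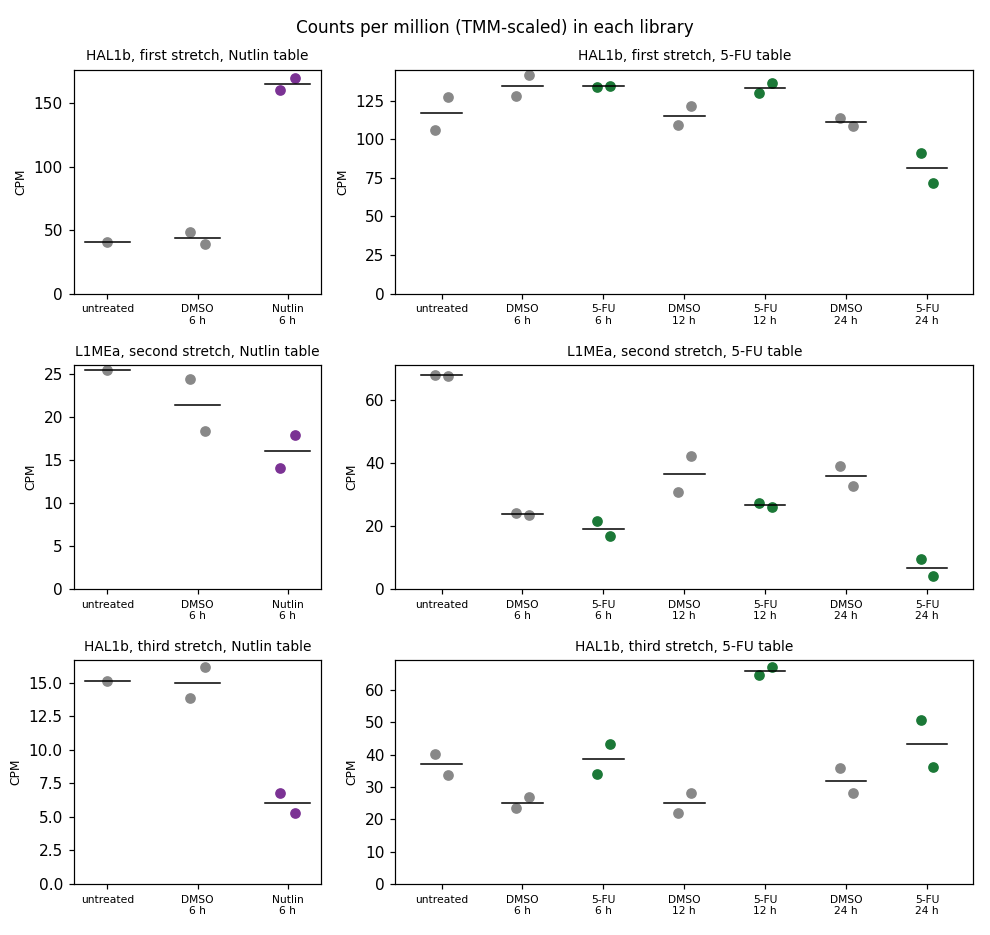
CPM of the central HAL1b copy of the first stretch, the L1MEa copy of the second and the HAL1b copy at the end of the third in each library of the Nutlin and the 5-FU table, with points for libraries and lines for group means. Each copy has its own pattern: 160.4 and 169.8 CPM with Nutlin for the first, 4.03 and 9.50 CPM after 24 h of 5-FU for the second, and 64.7 and 67.1 CPM after 12 h of 5-FU for the third.

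The third stretch rose after 12 h of 5-FU and was lower with Nutlin. It holds an LTR2 copy, pieces of LTR53-int, HERVL74-int and MER74B (endogenous retrovirus of the ERVL kind), AluJb, AluSq2 and AluJr copies between them, and 2 HAL1b fragments at its end, which overlap by some bases. The bin went from 114.7 ± 0.96 CPM with DMSO to 272.2 ± 19.3 with 12 h of 5-FU (SD, n = 2), a log2 fold change of 1.25 (SE 0.197, edgeR adjusted p = 7.41e-05). By log2 fold change it ranked 8477 from the top of 64607 bins across the genome, within the top 13.1%. It passed the test under every alternative and every left-out library tried at this bin width, with log2 fold changes from 0.68 on library size alone to 1.27 with structural RNA left out. At 6 h its log2 fold change was 0.42 (SE 0.193, adjusted p = 0.533), and the difference between the 12 h and 6 h effects was 0.82 (SE 0.274, adjusted p = 0.171). At 24 h it was 0.44 (SE 0.192).

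The ratio of this bin to the first stretch's bin needs no scaling between libraries, though it moves with either bin. It was 0.307 and 0.287 untreated, 0.215 and 0.232 with DMSO at 6 h, and 0.244 and 0.26 with 5-FU. At 12 h it was 0.267 and 0.221 with DMSO and 0.467 and 0.499 with 5-FU. At 24 h it was 0.322 and 0.324 against 0.563 and 0.526. In the Nutlin table it was 0.307 untreated, 0.282 and 0.367 with DMSO, and 0.0376 and 0.0343 with Nutlin.

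At 12 h 5 of the 51 tested copies of the window rose and 1 fell, or 9.8% and 1.96%, beside 5.44% and 4.27% of all tested copies. With RLE factors 5 rose and 3 fell, and on library size alone 4 rose and 7 fell, where the median of all copies lay at -0.36 in place of -0.04. Of the 5 that rose, 4 lay in this bin. The HAL1b copy at 33737496 had 59 and 74 counts with DMSO and 220 and 231 with 5-FU, or 21.9 and 28.3 CPM against 64.7 and 67.1. Its log2 fold change was 1.39 (SE 0.248, edgeR adjusted p = 0.00115). Both 12 h 5-FU libraries were above every other library of the table for this copy. At 6 h it had 34.1 and 43.3 CPM against 23.5 and 26.9, which did not pass (0.62, adjusted p = 0.596).

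The other 3 were shorter or more variable. AluJr at 33735843 had 21 and 15 counts against 61 and 120 (log2 fold change 1.96, SE 0.363, edgeR adjusted p = 0.00159), so its 2 treated libraries were far apart. MER74B, with 37 bp the shortest tested copy of the window, had 22 and 17 against 75 and 78 (1.60, SE 0.330, adjusted p = 0.00377). Its adjusted p was 0.0744 without the second 12 h DMSO library. LTR53-int at 33735452 had 42 and 38 against 93 and 121 (1.05, SE 0.287, adjusted p = 0.0236). It did not pass without either 12 h DMSO library (adjusted p = 0.137 and 0.173), without the second 12 h 5-FU library (adjusted p = 0.156) or on library size alone (0.72, adjusted p = 0.109). The neighbouring HAL1b fragment at 33737265 had 80 and 75 counts against 147 and 148, with a log2 fold change of 0.56 (adjusted p = 0.12). Of the 11 tested copies in the bin, 10 had a positive log2 fold change at 12 h, with a median of 0.83, beside 0.26 over the window's tested copies and -0.04 over all copies.

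With Nutlin the third stretch was lower in both libraries. The bin went from 486 and 557 counts to 354 and 238, a log2 fold change of -0.85 (SE 0.154). The HAL1b copy at 33737496 had 128 and 155 counts with DMSO and 77 and 44 with Nutlin, or 13.8 and 16.2 CPM against 6.79 and 5.31 (-1.29, SE 0.195). MER51A at 33759230, an LTR of an ERV1 element past the stretch, had 27 and 48 against 16 and 10 (-1.58, SE 0.406). These were the 2 copies past the threshold for lower with Nutlin. MER51A was not past it with DESeq2 or without the filter on low counts.

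At 6 h of 5-FU no copy or bin of the window passed the test. Of the 51 tested copies 8 had an unadjusted p under 0.05 with edgeR, beside 4690 of all 63602 copies. DESeq2 called none of the 51, and only 0.101% of all copies passed with edgeR at this time. The window's median log2 fold change was 0.12, beside -0.00 over all copies. The direct comparison of the 12 h and 6 h effects called none of the 51 copies, where 0.651% of all copies passed. It had 4 copies with an unadjusted p under 0.05, beside 8064 of all 63602 copies. DESeq2 called 1 copy, with the larger effect at 12 h. Fitting only the libraries of the comparison also called 1.

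The called copies were of several repeat kinds. The higher copies with Nutlin, a comparison that chose the window, are given as a description, and all lay in the first stretch. They were 11 of the 18 tested L1 and HAL1 copies and 3 of 9 Alu copies. The rest were 1 of 2 DNA transposons and 1 of 8 LTR and ERV copies. Shares of all tested copies by kind were not counted, so nothing is read from the kinds. At 12 h of 5-FU the 5 that rose were 2 LTR and ERV copies, 1 Alu, 1 DNA transposon and 1 HAL1b. HAL1b fragments stood on both sides: those of the first stretch were high with Nutlin, and the one at 33737496 was low with Nutlin and high after 12 h of 5-FU.

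Counted by 10 kb bin, 12 h of 5-FU called 1 of the 17 tested bins of the window higher and 1 lower, beside 11.9% of all 64607 bins called in either direction. DMSO against untreated called 1 bin, lower, where 1.82% of all bins were. At 6 h and for the 12 h minus 6 h difference none was called with edgeR or DESeq2, with 0.105% and 0.879% of all bins called by edgeR. An unadjusted p under 0.05 with edgeR was found in 4 and 2 of the 17 bins, beside 5713 and 8145 of all 64607. In the comparisons that chose the window, as a description, 2 of 14 bins were past the threshold for higher and 1 for lower with Nutlin, beside 8.45% of all bins in either direction, and 3 of 17 were, all lower, after 24 h of 5-FU, beside 2.18%.

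Outside the 3 stretches little was measurable. After the third stretch, 8 copies from 33747713 to 33901315 were tested in the 5-FU table, and none was called in any of its comparisons. At 12 h, 7 of these 8 had a positive log2 fold change, with a median of 0.71. At the edges of the window, the first tested copy inside is PrimLTR79 at 33570798 and the last AluSz6 at 33901007. With Nutlin their log2 fold changes were 0.99 (SE 0.509) and -0.42 (SE 0.330). The nearest tested copies outside, LSU-rRNA_Hsa at 33478276 and MIR3 at 34051626, had 0.17 (SE 0.107) and -0.07 (SE 0.141). In the 5-FU table the nearest outside were the same LSU-rRNA_Hsa copy and Charlie1a at 33925855. At 24 h they had -0.50 (SE 0.410) and 1.74 (SE 1.19), and the first and last inside had -1.43 (SE 0.761) and -0.22 (SE 0.484). At 12 h those outside had -0.89 (SE 0.412) and -3.31 (SE 1.55), and those inside 0.42 (SE 0.764) and 1.02 (SE 0.559).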

How the data were processed

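Total RNA of 18 IMR90 libraries was prepared with a stranded total RNA kit, per the labels' protocols. The authors deposited raw counts per repeat copy in 2 tables, of 14 libraries for 5-FU and 6 columns for Nutlin, of which the 2 untreated ones were identical and entered as 1. The submitters' processing notes list hg19, Trimmomatic 0.32, cutadapt 1.10, Bowtie2, edgeR and DESeq2 without their roles. How reads that match several copies were counted, and whether strand was used, is not given in the sources used here, so a copy and its near-identical relatives may share reads, and overlapping copies may share them too.

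Copies were read from the row names by position. Tests were edgeR's quasi-likelihood test over all copies that passed filterByExpr (21328 and 63602), with all libraries of a table in one fit, TMM scaling and Benjamini-Hochberg adjustment over all copies tested, and a call at an adjusted p under 0.05. Counts were also summed in 10 kb bins by copy start (29206 and 64607 bins tested), scaled by TMM on all copies. CPM are scaled by the same factors. For copies with no count in a group, the fold is a bound against 3 counts per library. The scripts were tested on simulated data. Versions were Python 3.11.15, pandas 2.3.3, R 4.3.3, edgeR 4.0.16 and DESeq2 1.42.0.

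The members and lists were chosen with earlier results of these data known. Copies named are the 2 that set the window, the 10 highest by mean CPM in each table, up to 5 that rose and 5 that fell per comparison by p with no overlap of libraries, and the tested neighbours of the first 2, 23 in all. Other copies appear by place only and were named after their values were seen. Alternatives were RLE factors, library size alone, DESeq2, no filter, structural RNA left out, a replicate block, only the libraries compared, other DMSO controls, 20 kb bins and each library left out. Each DMSO group alone and bin scaling from the tested copies were added after seeing the data. Library depth, given with the results, limits precision, and p-values cover 2 libraries a group.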

Additional observations from a re-analysis of the deposited data

Results flagged for a closer look

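Some copies of the window had both 5-FU libraries above both DMSO libraries at one time and below them at another. These opposite directions between times were not tested as such, except for the difference between 12 h and 6 h, where no copy or bin of the window passed, and the 24 h values chose the window. The first stretch's bin at 33590000 had log2 fold changes of 0.25 at 6 h, 0.25 at 12 h and -0.32 at 24 h. Its central HAL1b copy had 0.21 at 12 h and -0.45 at 24 h. AluSx at 33595458 had 0.29 at 6 h and -0.70 at 24 h, and L1ME4b at 33599065 had 0.46 at 6 h and -0.15 at 24 h. MER20 at 33597658 had 0.29 at 6 h, 1.07 at 12 h and -0.51 at 24 h. In the third stretch, MER74B at 33736667 had -0.09 at 6 h and 1.60 at 12 h.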

How the results depend on the processing

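The Nutlin, 6 h and DMSO results kept their number of called copies within 1.5 times under every scaling, filter and tool tried, and so did most bin counts. At 12 h of 5-FU, 6 called copies became 11 on library size alone and 14 when only the libraries compared were fitted. At 24 h, 5 became 10 on library size alone and 9 with DESeq2. The 3 copies lower with DMSO than untreated became 1 with the 12 h DMSO group alone and 0 with the 24 h group alone. The 12 h minus 6 h comparison called 1 copy in place of 0 with DESeq2 and with only the libraries compared. Called bins went from 3 to 5 with Nutlin on library size alone and with scaling from the tested copies. They went from 0 to 1 at 6 h with only the libraries compared, from 2 to 4 at 12 h against the 6 h and 24 h DMSO libraries, and from 1 to 3 with the 6 h DMSO group alone against untreated. The shares of all copies and bins called under each setting are not given beside them, so these shifts cannot be read as particular to the window. The cause of the shifts was not tested. Library size alone moved the median of all copies from -0.04 to -0.36 at 12 h and from 0.01 to -0.14 with Nutlin.

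For the central HAL1b copy, small effects turned: the 12 h log2 fold change was -0.12 and the 12 h minus 6 h difference -0.054 on library size alone, the 6 h value was 0.12 without a filter, and DMSO against untreated was -0.11 on library size alone, -0.12 without a filter, -0.019 with the 12 h and -0.072 with the 24 h DMSO group alone. At 24 h it became a call on library size alone (-0.63) and with DESeq2 (-0.50). The L1MEa copy became a call at 12 h with only the libraries compared (-0.54). It lost its call against untreated with the 12 h (-0.89) and the 24 h (-0.92) DMSO group alone.

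With each library left out in turn, called copies ranged from 3 to 5 at 12 h and from 0 to 3 for DMSO against untreated, and called bins from 1 to 2 at 12 h. The HAL1b copy ranged from -0.13 to 0.022 at 6 h and from -0.14 to 0.13 for DMSO against untreated. The L1MEa copy ranged from -0.74 to -0.14 with Nutlin, from -0.40 to 0.028 for 12 h minus 6 h, and from -1.16 to -1.01 for DMSO against untreated. A lone library was assumed to vary like the other groups. Of 8 other called results on single copies in the tested comparisons, 3 kept their call under all settings other than left-out libraries (AluJr, MER74B and the HAL1b copy at 33737496, at 12 h), and none reversed. In the comparisons that chose the window 14 of 15 stayed past the threshold, which is no sign of stability.

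Over 22 pairs of groups, deviations of same-numbered libraries correlated at -0.105 to 0.139. Whether same-numbered libraries of different groups shared a culture or a preparation was not tested. With a replicate block (the replicate number as a model term) the called copies were 18, 0, 6 and 5 for Nutlin and for 6, 12 and 24 h of 5-FU, as without it, and called bins with Nutlin were 4 in place of 3.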
